A study of Mus musculus with 4 samples.

Results

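The transcripts described here are those of the mouse mitochondrial genome, taken as every gene whose symbol begins with mt- in the deposited gene tables. They number 37 of 55335 genes: 13 protein genes, 2 ribosomal RNA (rRNA) genes and 22 transfer RNA (tRNA) genes. RNA was measured in oocytes of C57BL/6 mice, amplified by Smart-Seq2, a method for very small amounts of RNA that starts from polyadenylated ends. There were 2 control and 2 mutant libraries, and the sample descriptions carry the letters MII. The design text describes mice with a point mutation at an alternative splice site of Ezh2 exon 3, made to give the long or the short form of the protein, but the labels of the mutant libraries do not say which form they carry. Ezh2 is the enzyme that methylates histone H3 at lysine 27. The labels do not tie the libraries of a group to different animals, and the spread behind each p-value is that of these 4 libraries alone.

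Mitochondrial DNA is transcribed from both strands as long precursors that cover nearly the whole circle. The tRNA genes lie between the other genes, and the enzymes RNase P and ELAC2 cut at their ends, which frees the rRNAs and mRNAs on either side. The freed mRNAs are then stabilised by LRPPRC and SLIRP and most receive a short poly(A) tail. In an oocyte the mitochondrial pool is stored and inherited by the embryo through the mother.

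In the annotation 28 of the genes lie on the plus strand of mitochondrial DNA and 9 on the minus strand, namely mt-Nd6, a subunit of respiratory complex I, and 8 tRNA genes. The protein genes mt-Co3, mt-Nd4 and mt-Cytb end in a lone T, and their stop codon is completed only when the poly(A) tail is added. Their last 15 bases are shown beside those of mt-Nd3, which carries a whole stop codon, with the encoded stop letters in capitals.
mt-Co3: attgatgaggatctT
mt-Nd4: caggcctgacaataT
mt-Cytb: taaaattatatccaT
mt-Nd3: gaatgaacagagTAA
The other 9 protein genes also end in TAA or TAG. Only RNA that carries a poly(A) tail or an internal run of A can be primed by the library method.

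The region in which the libraries differed most runs from mt-Co3 through mt-Tg, mt-Nd3 and mt-Tr to mt-Nd4l (chrM:8607-10173, mm10), all on the plus strand. The tRNA genes in it, mt-Tg for glycine and mt-Tr for arginine, are shown whole with the anticodon in capitals, next to mt-Th for histidine and mt-Te for glutamate, which lie outside it.
mt-Tg: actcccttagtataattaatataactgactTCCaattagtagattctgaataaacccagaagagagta
mt-Tr: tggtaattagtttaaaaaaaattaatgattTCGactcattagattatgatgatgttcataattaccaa
mt-Th: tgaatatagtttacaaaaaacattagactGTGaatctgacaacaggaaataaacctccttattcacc
mt-Te: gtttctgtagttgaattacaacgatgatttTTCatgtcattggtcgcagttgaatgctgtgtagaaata

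The nuclear genome holds near-identical copies of mitochondrial genes, and reads from a gene and its copy can be divided between them by the counting. Among the annotated transcripts, 11 nuclear genes matched a mitochondrial gene at 95% identity or more over at least 200 bases. Of these, 7 form a block on the minus strand of chromosome 1 (chr1:24611535-24616197, 4663 bases, mm10), where they keep the mitochondrial gene order from mt-Co1 to mt-Nd4. The copies of mt-Co2, mt-Atp6, mt-Co3, mt-Nd4l and mt-Nd4 matched at 100% over their length. Those of mt-Nd3 and mt-Co1 each had 1 substitution, T3C in mt-Nd3 and A1066T in mt-Co1, with the mitochondrial base first and positions counted from the first base of the gene. The sequences around them are shown because they hold the single difference in each aligned stretch, with the differing base in capitals. The first 9 bases of Gm29216 lie outside its aligned stretch.
mt-Nd3: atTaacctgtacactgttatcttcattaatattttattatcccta
Gm28438: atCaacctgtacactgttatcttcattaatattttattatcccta
mt-Co1: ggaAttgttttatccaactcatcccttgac
Gm29216: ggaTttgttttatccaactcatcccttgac
The spacing between neighbouring copies equals that of the mitochondrial genes at 5 of 6 gaps. The exception is the gap that holds mt-Tr in the mitochondrial genome, which is 73 bases there and 74 bases between the copies on chromosome 1. No gene is annotated in that gap on chromosome 1, nor in the 69-base gap that corresponds to mt-Tg. The other 4 nuclear copies, on chromosomes 2 and 13, held at most 32 counts in all in a library. Which bases the reads carry at these positions, and whether the mitochondrial sequence of the mutant oocytes equals that of the controls, was not tested.

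The 4 libraries held 25090032 to 26617816 counts. Ezh2 stood at 313 and 239 CPM (counts scaled to 1 common library size) in the controls against 176 and 223 in the mutants, a level that does not check the labels since a splice-site change need not remove the RNA. All 10 oocyte markers had counts in every library, with a sum of 13316 to 14835 CPM. The 12 cumulus and granulosa cell markers summed to 27.3 and 1.15 CPM in the controls against 326 and 15.3 CPM in the mutants, with 4, 8, 2 and 4 of them at 0. The 12 leukocyte markers summed to 37.9 and 37.7 CPM in the controls against 37.9 and 255 CPM in the mutants, with 7, 9, 5 and 0 of them at 0. So mutant 1 stood apart for the first list and mutant 2 for the second, and the part of either in the values below was not tested.

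Mitochondrial genes took a smaller share of all counts in the mutants. The share was 2.75% in control 1 and 2.14% in control 2, against 1.83% in both mutants, so the groups did not overlap. The mean fell from 2.45% ± 0.430 to 1.83% ± 0.00172 (SD, n = 2 each), a ratio of 0.748. The 7 copies on chromosome 1, which are not part of this share, held 103572 and 77115 counts in the controls against 59336 and 62652 in the mutants, so their sum was lower in the mutants too. The 2-sided exact permutation test gave p = 0.333, which is the smallest that 2 against 2 libraries allow. The RNA classes differed in this. Protein genes took 2.25% and 1.76% of all counts in the controls against 1.35% and 1.45% in the mutants, without overlap. The rRNA genes took 0.484% and 0.363% in the controls against 0.476% and 0.372% in the mutants, so the groups interleaved and their means were alike, at 0.424% each. The tRNA genes took 0.0182% and 0.0175% in the controls against 0.00864% and 0.00986% in the mutants. Most of that tRNA difference lay in mt-Tr. Without it the tRNA genes took 0.00987% and 0.0104% in the controls against 0.00838% and 0.00965% in the mutants, still without overlap but with a ratio of 0.891. Without mt-Tr and mt-Tg they took 0.00955% and 0.0100% in the controls against 0.00835% and 0.00959% in the mutants, where the groups overlapped.

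Within the mitochondrial total the classes shifted accordingly. Protein genes made up 81.8% and 82.3% of mitochondrial counts in the controls against 73.5% and 79.2% in the mutants. The rRNA genes made up 17.6% and 16.9% in the controls against 26.0% and 20.3% in the mutants. For each 100 counts on protein genes there were 21.5 and 20.6 on rRNA genes in the controls against 35.4 and 25.6 in the mutants, where mutant 1 was the highest of the 4. The cumulus and granulosa markers were highest in mutant 1, at 326 CPM, and the leukocyte markers in mutant 2, at 255 CPM, and the part of either in the rRNA shares was not tested. The tRNA genes made up 0.663% and 0.817% of mitochondrial counts in the controls against 0.472% and 0.538% in the mutants. That direction rested on mt-Tr, since the tRNA genes other than mt-Tr made up 0.359% and 0.483% in the controls against 0.458% and 0.527% in the mutants, overlapping and with a ratio of 1.17.

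**Figure D1:**
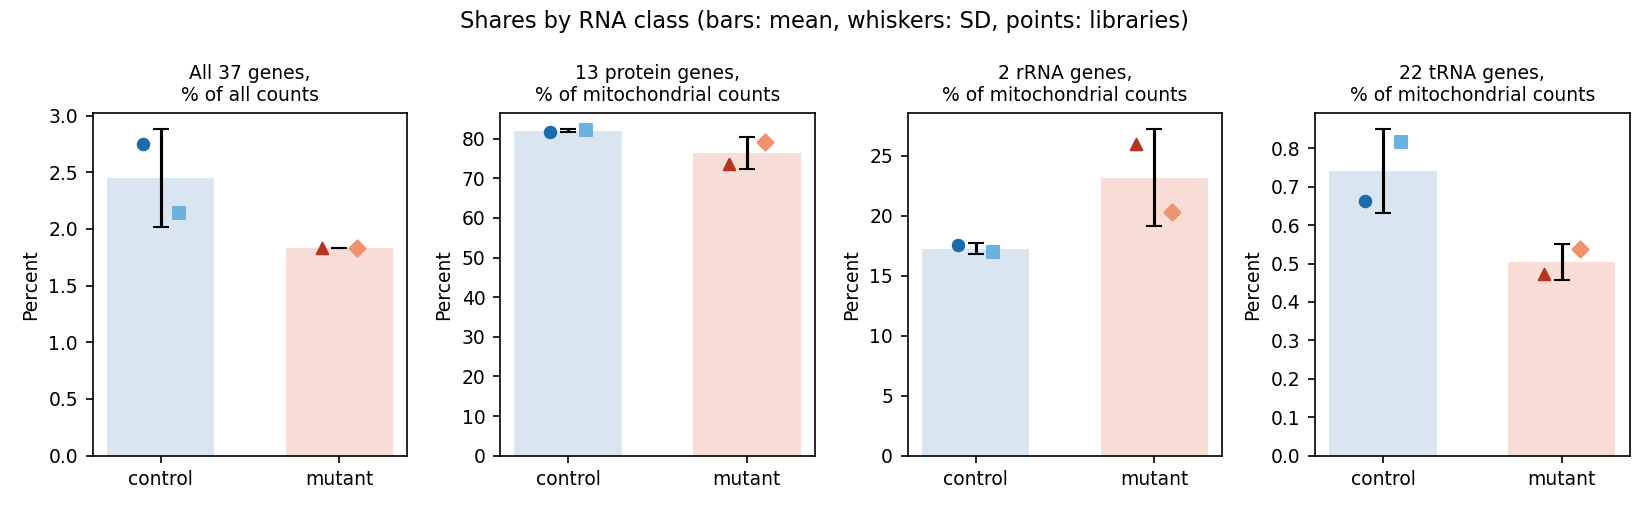
Percent of all counts on the 37 mitochondrial genes (first panel) and percent of mitochondrial counts on the protein, rRNA and tRNA genes (other panels), with points as libraries (controls blue, mutants red), bars as group means and whiskers as the SD, all axes from 0. In each panel the groups do not overlap: the mutants lie lower for all genes, protein genes and tRNA genes and higher for rRNA genes, where mutant 1 reaches 26.0%, though without mt-Tr the tRNA shares overlap.

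All 37 genes passed the filter on low counts and were tested with edgeR's quasi-likelihood test over 15493 genes. Of the 37, 4 were lower in the mutants at an adjusted p under 0.05 and 0 were higher, against a background of 1.98% of all tested genes called lower, 1.77% called higher and 3.75% called in either direction. The 4 were mt-Co3, mt-Nd3, mt-Tr and mt-Nd4l, which are 3 of 13 protein genes, 0 of 2 rRNA genes and 1 of 22 tRNA genes. The nuclear copies of those 3 protein genes held more counts in the mutants. A lower level of these 4 transcripts and an assignment of their reads to the copies cannot be told apart from the mitochondrial counts alone. At an unadjusted p under 0.05 there were 15 lower, 12 of them protein genes, and 0 higher, beside 10.4% of all tested genes lower and 12.5% higher. In CPM the groups did not overlap for 29 of the 37 genes, beside 54.6% of all tested genes. The median log2 fold change was -0.82 for the protein genes, -0.01 for the rRNA genes and 0.04 for the tRNA genes, against 0.05 over all genes tested. In a bulk measurement, fewer mitochondrial transcripts per cell and a larger amount of other RNA cannot be told apart.

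The order of the transcripts by level depended on whether the nuclear copies were counted in. In the mitochondrial counts alone, per kilobase of gene, mt-Cytb, the complex III subunit cytochrome b, led in every library, with 6811 and 4795 CPM per kilobase in the controls against 3209 and 3533 in the mutants. In the controls mt-Atp6, a subunit of ATP synthase, followed with 4446 ± 830 CPM per kilobase (SD, n = 2). With copies summed mt-Atp6 led in every library instead, with 10554 and 7923 CPM per kilobase in the controls against 4707 and 5328 in the mutants. The next 3 in the controls were mt-Co1 at 2840 ± 432, mt-Nd1 at 2770 ± 622 and mt-Rnr2 at 2559 ± 724 CPM per kilobase. Of these mt-Rnr2 was the lowest in both controls, while mt-Co1 and mt-Nd1 changed places between them. In the mutants mt-Co1 stood at 2740 ± 172 and mt-Atp6 at 2424 ± 215 CPM per kilobase. Within each mutant library mt-Co1 was the higher, at 2618 and 2861 against 2272 and 2576. With copies summed mt-Atp6 was the higher, at 5017 ± 439 against 2743 ± 170. Among complex I subunits mt-Nd2 and mt-Nd4 came next, at 1241 ± 275 and 1147 ± 434 in the controls against 704 ± 136 and 675 ± 127 in the mutants. Their order differed between the controls, while mt-Nd2 was slightly higher in both mutants. In the mitochondrial counts alone the lowest protein genes in the controls were mt-Atp8 at 156 ± 20.2 and mt-Co3 at 123 ± 16.5 CPM per kilobase, and in the mutants mt-Nd4l at 8.90 ± 0.603 and mt-Nd3 at 5.50 ± 0.598. With copies summed the lowest in every library was mt-Atp8, at 157 ± 20.2 in the controls and 79.6 ± 7.96 in the mutants, followed by mt-Co3 at 189 ± 27.9 and 146 ± 1.78. No annotated copy was found for mt-Atp8, so its value is that of the gene alone beside genes that gained the counts of a copy. The sums for mt-Nd4l were then 299 ± 58.2 and 360 ± 22.5, and those for mt-Nd3 229 ± 40.3 and 276 ± 21.4, so neither was among the lowest in the mutants. In the expected counts, described below, mt-Nd4, mt-Co2, mt-Atp6 and mt-Co3 held 132% to 491% of their matrix counts. The other genes with a chromosome 1 copy held less than theirs. Protein and rRNA genes without such a copy, mt-Atp8 aside, held 68.7% to 98.9%. So the places of genes with a copy beside genes without one depend on the source of the counts.

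**Figure D2:**
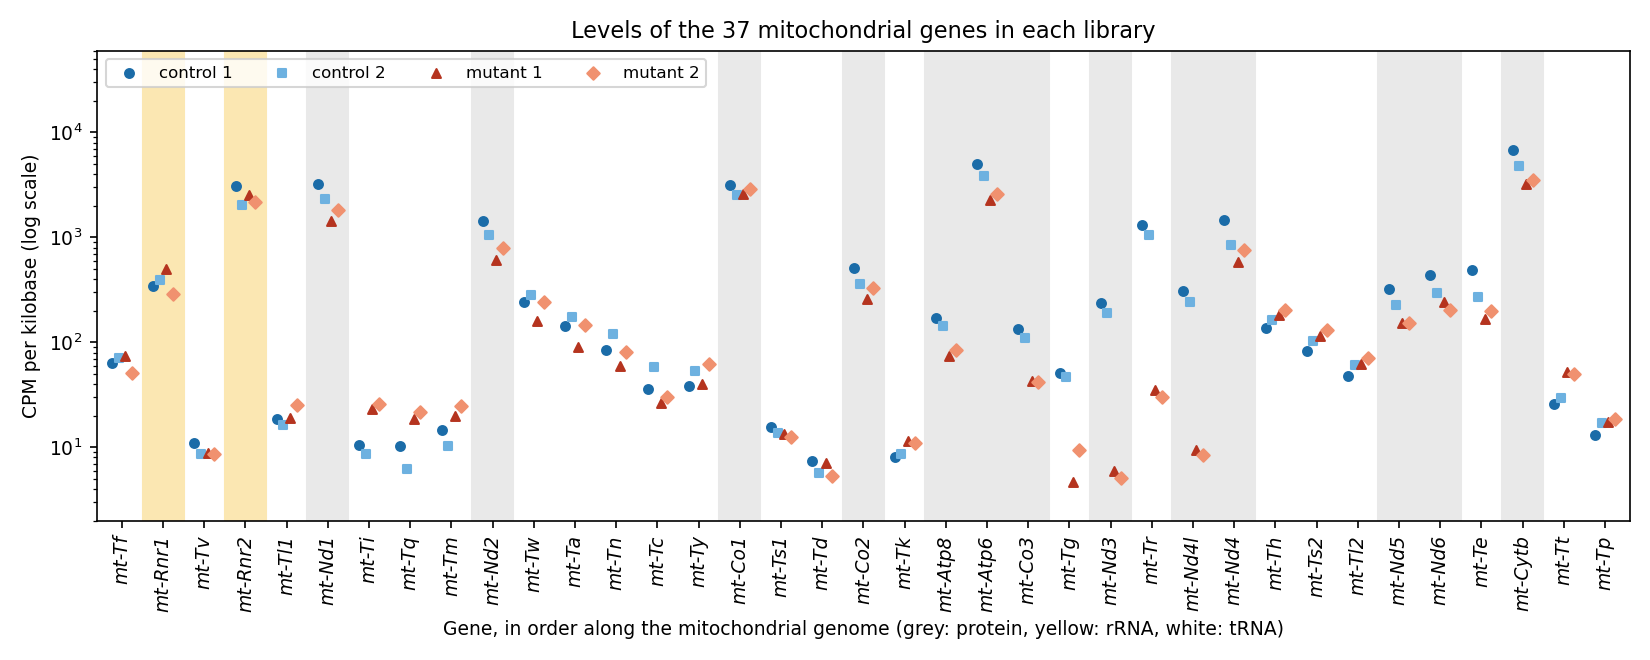
Level of each of the 37 mitochondrial genes in each library (CPM per kilobase of gene, log axis) in genome order, with shading for the RNA class and controls in blue, mutants in red. Controls and mutants part most widely at mt-Tg, mt-Nd3, mt-Tr and mt-Nd4l. There the mutant means fall to 8.90 for mt-Nd4l and 5.50 for mt-Nd3, without their nuclear copies. At mt-Co3 the means are 123 in the controls and 42.7 in the mutants. The groups do not overlap for 29 of the 37 genes, beside 54.6% of all tested genes, mostly by smaller amounts.

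Most protein genes had lower values in the mutants, by similar amounts, without passing the test one by one. For mt-Cytb there were 193477 and 138237 counts in the controls against 103381 and 107590 in the mutants, and for mt-Atp6 85118 and 66219 against 43580 and 46705. In both genes each mutant lay below each control. Leaving aside mt-Co1, mt-Co3, mt-Nd3 and mt-Nd4l, the log2 fold changes of the other 9 protein genes ran from -0.97 for mt-Atp8 to -0.58 for mt-Co2, with a median of -0.78 and adjusted p from 0.0619 to 0.176 (edgeR). On the linear scale the control means were 1.5 to 1.97 times the mutant means. It took in complex I (mt-Nd1 at -0.77, mt-Nd2 at -0.82, mt-Nd4 at -0.76, mt-Nd5 at -0.83, mt-Nd6 at -0.73), complex III (mt-Cytb at -0.78), complex IV (mt-Co2) and ATP synthase (mt-Atp6 at -0.87). The value at the minus-strand gene mt-Nd6 thus lay within the range of the plus-strand genes. The use of strand by the counting is not given, so RNA of the opposite strand cannot be told apart there. DESeq2 called 14 of the 37 genes lower and 0 higher, where it called 5.12% of all genes lower, 5.52% higher and 10.6% in either direction. Its calls were all protein genes other than mt-Co1 and mt-Co2, with mt-Tg, mt-Tr and mt-Te. The size of the edgeR log2 fold changes of the 9 protein genes depended on which control was kept. Without control 1 they ran from -0.85 for mt-Atp8 to -0.32 for mt-Co2. Without control 2 they ran from -1.15 for mt-Nd4 to -0.86 for mt-Co2.

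The gene mt-Co1, which encodes the catalytic core of complex IV, differed from its neighbours. It held 120687 and 98659 counts in the controls against 113916 and 117669 in the mutants, so the groups overlapped, and the log2 fold change was -0.05 ± 0.19 (SE, adjusted p = 0.902, edgeR). Its share of mitochondrial counts was 16.5% and 18.3% in the controls against 23.4% and 24.1% in the mutants, without overlap. For each 100 counts on the other 12 protein genes there were 25.2 and 28.7 on mt-Co1 in the controls against 46.7 and 43.9 in the mutants. The 2-sided exact permutation p of that ratio was 0.333, the smallest possible. The copy of mt-Co1 on chromosome 1, which aligned to 483 of its 1545 bases, held 0.20% and 0.21% of their joint matrix counts in the controls against 0.18% and 0.10% in the mutants. Its part of the expected counts was larger, as given below.

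The rRNA genes did not differ beyond their spread. The large rRNA mt-Rnr2 held 120615 and 81604 counts in the controls against 113017 and 91550 in the mutants (log2 fold change -0.12 ± 0.24 SE, adjusted p = 0.813, edgeR). The small rRNA mt-Rnr1 held 8218 and 9509 counts in the controls against 13500 and 7318 in the mutants (0.09 ± 0.26, adjusted p = 0.877). In each the groups interleaved, and for mt-Rnr1 the highest and the lowest values were both mutants. Per base, mt-Rnr2 was 8.86 and 5.18 times mt-Rnr1 in the controls and 5.05 and 7.55 times in the mutants.

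The 4 genes past the threshold lie in 1 stretch of the genome. For mt-Co3, a core subunit of complex IV, the counts were 2619 and 2196 in the controls against 953 and 882 in the mutants (log2 fold change -1.52 ± 0.17 SE, adjusted p = 0.0099, edgeR). For mt-Nd3, a complex I subunit, they were 2051 and 1660 in the controls against 58 and 47 in the mutants (-5.27 ± 0.25, adjusted p = 0.000467). For mt-Nd4l, another complex I subunit, they were 2284 and 1809 in the controls against 78 and 67 in the mutants (-4.95 ± 0.24, adjusted p = 0.000467). In all of them the groups stood far apart and the libraries of a group close together. The same held for mt-Tr, with 2227 and 1798 counts in the controls against 68 and 55 in the mutants (-5.16 ± 0.24, adjusted p = 0.000467). The genes mt-Nd3, mt-Tr and mt-Nd4l lie side by side, and their counts were close to each other within each library. Whether the same fragments were counted on more than 1 of them was not tested, so their calls may not be separate. Between mt-Co3 and mt-Nd3 lies mt-Tg, with 87 and 80 counts in the controls against 9 and 17 in the mutants, a log2 fold change of -2.79 ± 0.58 that did not pass the test (adjusted p = 0.0555). Without control 1 or without control 2, mt-Co3 no longer passed (adjusted p = 0.178 and 0.12, edgeR).

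For mt-Nd3 and mt-Nd4l most of the joint counts of gene and copy stood on the nuclear copy in the mutants. The copy of mt-Nd3, Gm28438, held 169 and 94 counts in the controls against 2497 and 2649 in the mutants (log2 fold change 4.16 ± 0.32, adjusted p = 0.00232, edgeR). The copy of mt-Nd4l, Gm10222, held 225 and 122 counts in the controls against 2800 and 2906 in the mutants (3.91 ± 0.32, adjusted p = 0.00324). Of the joint counts of gene and copy, the copy took 7.61% and 5.36% for mt-Nd3 in the controls against 97.7% and 98.3% in the mutants. For mt-Nd4l it took 8.97% and 6.32% in the controls against 97.3% and 97.8% in the mutants, so in both the division reversed. For mt-Co3 the copy Gm28437 took 35.4% and 34.2% in the controls against 70.2% and 71.3% in the mutants. The 95% Wilson intervals of these shares had half-widths of at most 1.61 percentage points, and cover counting error only, since amplified reads are not independent molecules.

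At the remaining copies the division of the counts was closer between the groups. For mt-Atp6 the copy took 52.3% and 51.3% in the controls against 51.7% in both mutants. For mt-Co2 it took 47.1% and 47.2% in the controls against 48.9% and 44.1% in the mutants, which straddle the controls. For mt-Nd4 it took 1.02% and 0.87% in the controls against 0.61% in both mutants. Gm10925, the copy of mt-Atp6, alone held 90.05% and 90.4% of the counts on the 7 copies in the controls against 78.7% and 79.7% in the mutants.

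With gene and copy summed, mt-Nd3 and mt-Nd4l turned from lower to slightly higher values in the mutants, and neither passed the test. The sum for mt-Nd3 was 2220 and 1754 in the controls against 2555 and 2696 in the mutants (log2 fold change 0.27 ± 0.18 SE, adjusted p = 0.414, edgeR). The sum for mt-Nd4l was 2509 and 1931 in the controls against 2878 and 2973 in the mutants (0.27 ± 0.18, adjusted p = 0.432). In both, each mutant sum was above each control sum. With expected counts the same sums had log2 fold changes of -0.41 and -0.24, so the direction rests on the source of the counts. The sum for mt-Co3 was 4057 and 3338 in the controls against 3200 and 3078 in the mutants (-0.37 ± 0.16, adjusted p = 0.231). In this fit over 15485 genes only mt-Tr was called among the 37, as lower, against 1.94% of all genes called lower, 1.72% called higher and 3.66% in either direction. The log2 fold changes of the 9 other protein genes kept their range, from -0.98 to -0.60. Among them only mt-Co2, mt-Atp6 and mt-Nd4 have copies on chromosome 1. The rest had no copy or a copy with at most 5 counts in a library, so their values could hardly move. For mt-Tr and mt-Tg no sum can be formed, since no annotated gene on chromosome 1 corresponds to them, so whether their counts were divided in the same way was not tested. The same holds for mt-Atp8, which lies between mt-Co2 and mt-Atp6. The copies of those genes are 233 bases apart, as in the mitochondrial genome.

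The expected counts, in which RSEM divides reads between genes by their likelihood, gave a different division. Of the joint expected counts the copy of mt-Nd3 took 2.39% and 0% in the controls against 73.1% and 68.7% in the mutants. The copy of mt-Nd4l took 91.5% and 90.5% in the controls against 94.7% and 97.9% in the mutants, so here the groups were close. The shares of these genes rest on few expected counts. For mt-Nd4l itself there were 31.15 and 22.67 in the controls against 16.53 and 5.3 in the mutants. For mt-Nd3 itself there were 145 and 137 in the controls against 29.1 and 39.5 in the mutants. The copy of mt-Co3 took 3.30% and 4.86% in the controls against 5.19% and 5.67% in the mutants. For mt-Co1 the copy took 9.06% and 12.9% in the controls against 10.7% and 5.57% in the mutants, so the groups overlapped. In the test on rounded expected counts (13182 genes, of which 2.2% were called lower, 1.69% higher and 3.89% in either direction) none of mt-Nd3 (-2.14, adjusted p = 0.0585), mt-Nd4l (-1.43, adjusted p = 0.385) and mt-Co3 (-0.45, adjusted p = 0.152) passed. The 1 gene called lower was mt-Atp6 (-0.91, adjusted p = 0.0438), which missed the threshold in the matrix counts (-0.87, adjusted p = 0.0625). All 22 tRNA genes had an expected count of 0 and an effective length of 0 in every library. The effective length is the length less what a typical fragment takes up, 310 to 324 bases in these libraries, which is more than the length of any tRNA gene. The effective length was also 0 for mt-Atp8, which held 61 and 35 expected counts in the controls against 31 and 30 in the mutants. It was short for mt-Nd4l, at 8.07 to 10.57 bases, and for mt-Nd3, at 34.08 to 42.02 bases. Their division in the expected counts is therefore uncertain. The mitochondrial share of expected counts was 3.13% and 2.47% in the controls against 2.08% in both mutants, close in ratio to that of the matrix.

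**Figure D3:**
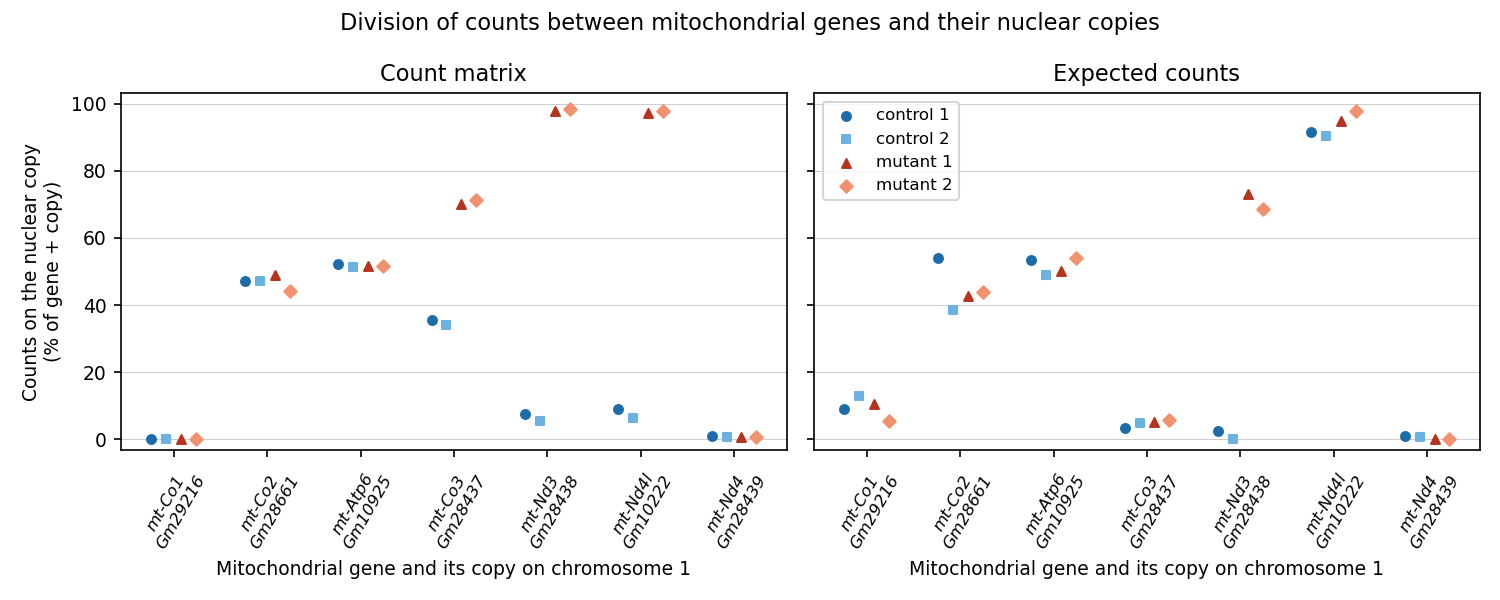
Percent of the joint counts of a mitochondrial gene and its chromosome 1 copy that were counted on the copy, for 7 genes and each library, in the matrix counts (left) and the expected counts (right), on an axis that runs past 0 and 100. On the left the controls lie at 8.97% or less for mt-Nd3 and mt-Nd4l and the mutants at 97.3% or more, while on the right such a gap is seen only for mt-Nd3. On the right mt-Nd4l itself holds at most 31.15 expected counts in a library.

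**Figure D4:**
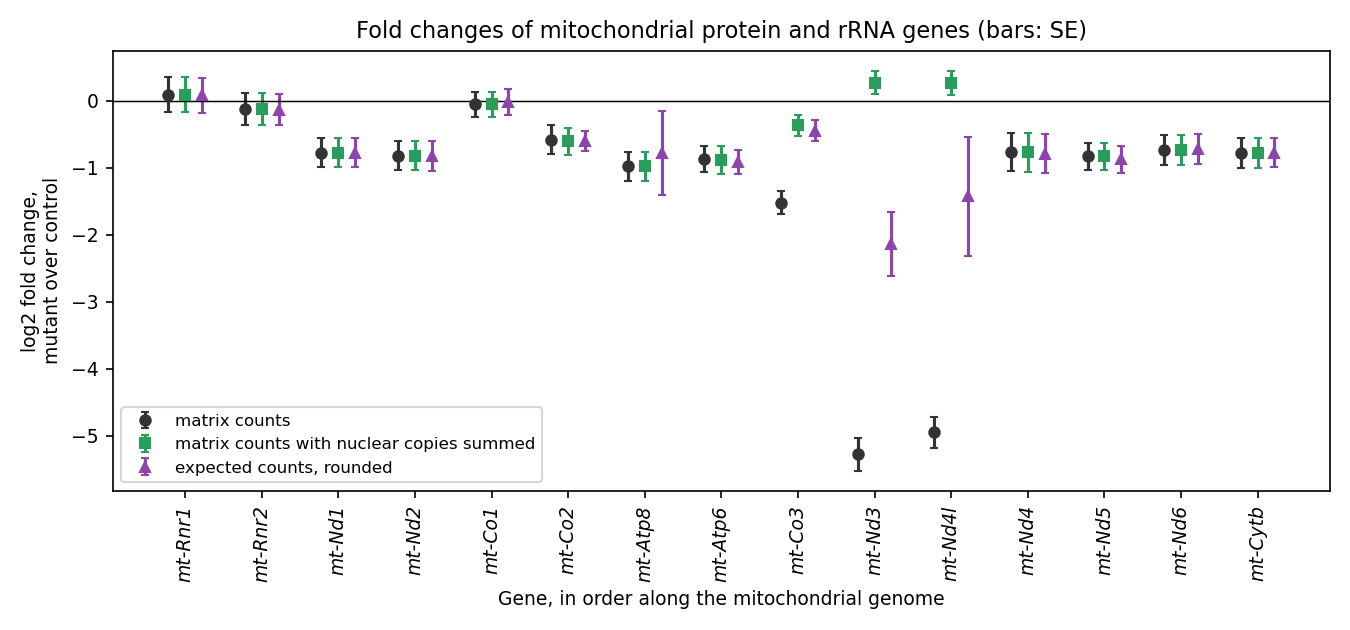
Log2 fold change, mutant over control, of the protein and rRNA genes in genome order, from the matrix counts, the matrix counts with nuclear copies summed, and the rounded expected counts, with bars as the SE of the edgeR fit. The 3 sources lie together for most genes and part at mt-Co3, mt-Nd3 and mt-Nd4l, where mt-Nd3 runs from -5.27 in the matrix counts to 0.27 with its copy summed.

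The tRNA genes were counted sparsely, at 9 to 2227 counts per gene and library. Cut tRNAs, uncut precursors and reads that reach over from a neighbouring gene cannot be told apart in them. In the controls mt-Tr alone made up 45.9% and 40.9% of all tRNA counts, and in the mutants 2.96% and 2.10%. Next in the controls was the minus-strand gene mt-Te, with 840 and 466 counts against 327 and 365 in the mutants (log2 fold change -1.05 ± 0.33 SE, adjusted p = 0.123, edgeR). Of the 22 tRNA genes 11 had a positive and 11 a negative log2 fold change.

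Grouped into the 12 runs in which they lie between other genes, tRNA genes differed by run. The run mt-Th, mt-Ts2 and mt-Tl2, for histidine, serine and leucine, lies between mt-Nd4 and mt-Nd5, and held 59.2 and 99.4 of each 100000 mitochondrial counts in the controls against 136 and 144 in the mutants. Its leading gene mt-Th had 230 and 274 counts in the controls against 346 and 359 in the mutants (log2 fold change 0.36 ± 0.26, adjusted p = 0.473, edgeR). The cluster of mt-Tw, mt-Ta, mt-Tn, mt-Tc and mt-Ty, which surrounds the origin of light-strand replication, held 126 and 219 per 100000 in the controls against 148 and 209 in the mutants, so the groups interleaved. The run mt-Tt and mt-Tp, beside the control region, held 8.87 and 14.7 per 100000 in the controls against 26.9 and 25.0 in the mutants. For mt-Tt itself the counts were 43 and 50 in the controls against 98 and 89 in the mutants (0.87 ± 0.43, adjusted p = 0.281). The run mt-Ti, mt-Tq and mt-Tm lies between mt-Nd1 and mt-Nd2 and held 8.32 and 8.18 per 100000 in the controls against 24.9 and 27.5 in the mutants, a ratio of 3.17 that rests on 44 to 134 counts. Its genes fall below the abundance at which single tRNA genes are described here, and the run was chosen after its values were seen. Within the mitochondrial total, groups did not overlap for 27 of the 37 genes, with a higher share in the mutants for 15 (mt-Co1, mt-Rnr2 and 13 tRNA genes) and a lower share for 12 (9 protein and 3 tRNA genes). Set over the same mitochondrial total, 59.7% of all tested genes did not overlap, 51.4% with higher and 8.26% with lower values in the mutants.

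**Figure D5:**
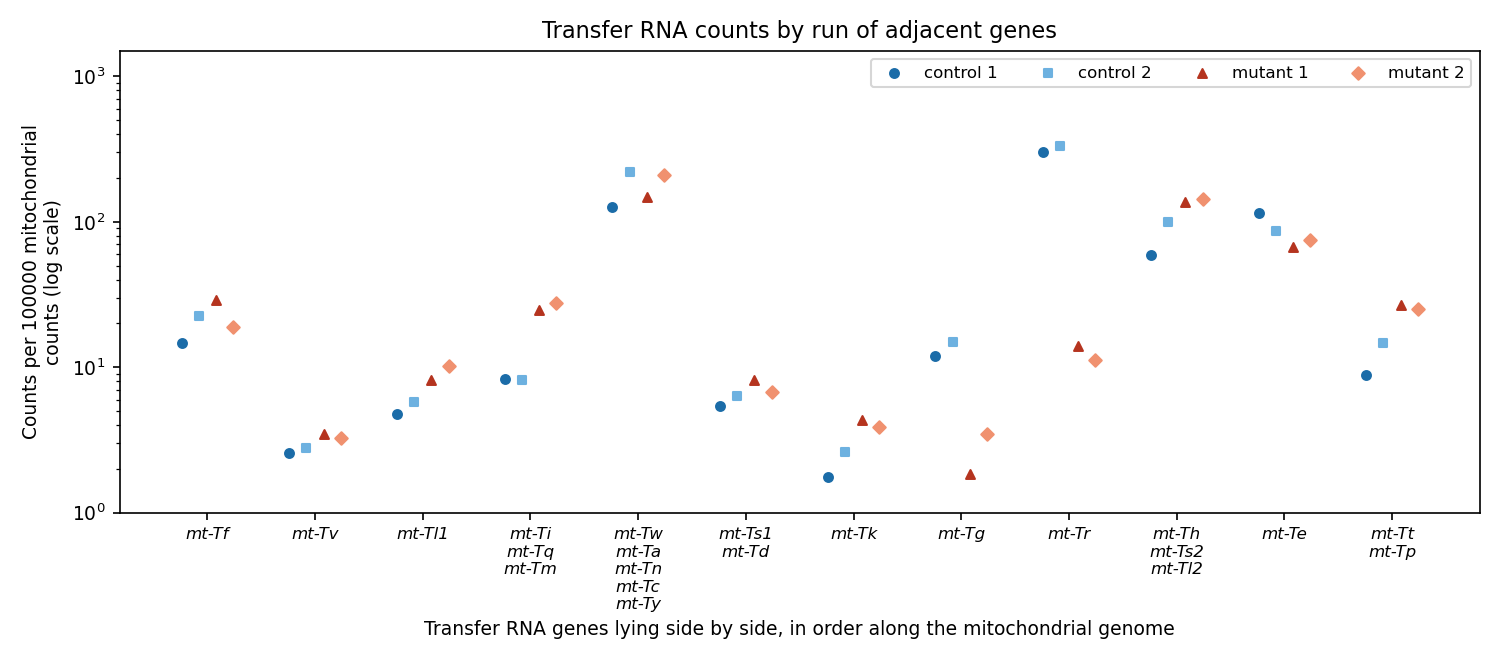
Counts on each of the 12 runs of adjacent tRNA genes per 100000 mitochondrial counts (log axis) in each library (controls blue, mutants red), in genome order. The mutants lie lower at mt-Tg, mt-Tr and mt-Te, higher at 7 runs such as mt-Ti to mt-Tm, and interleave with the controls at mt-Tf and from mt-Tw to mt-Ty.

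The nuclear genes that transcribe, cut, stabilise and modify mitochondrial RNA were called at shares near those of all genes tested. Of 58 names on the list, 57 matched a gene and 53 were tested, of which 1 was lower and 0 higher, against 1.98% and 1.77% of all genes, while at an unadjusted p under 0.05 there were 6 lower and 5 higher, beside 10.4% and 12.5% of all genes. Their median log2 fold change was 0.03, beside 0.05 over all genes tested. The gene that passed was Trmt10c, a subunit of mitochondrial RNase P, with 45.3 and 34.9 CPM in the controls against 12.5 and 18.4 CPM in the mutants (log2 fold change -1.38 ± 0.27 SE, adjusted p = 0.0468, edgeR). Without control 1 or control 2 it did not pass (adjusted p = 0.337 and 0.276), nor with RLE scaling (adjusted p = 0.053). The processing group had 1 of its 14 tested genes lower, and its most abundant members were Angel2 (1014 ± 58.7 CPM in the controls and 864 ± 173 in the mutants, SD, n = 2 each) and Fastkd1 (109 ± 4.06 and 112 ± 2.32).

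None of 18 genes of transcription and genome maintenance passed, with a median log2 fold change of 0.15. The most abundant were Mterf3, a transcription factor of the mTERF family, at 38.6 ± 5.15 CPM in the controls and 63.6 ± 4.19 in the mutants, and the primase-polymerase Primpol, at 44.2 ± 9.19 and 36.1 ± 7.45. None of 7 genes of stability, polyadenylation and decay passed (median -0.12). The most abundant were the mitochondrial poly(A) polymerase Mtpap, at 294 ± 48.0 and 238 ± 60.6 CPM, and the RNA helicase Supv3l1, at 46.4 ± 3.96 and 42.7 ± 0.523. None of the 14 tested RNA modification genes passed (median 0.06). Of these the most abundant were Trnt1, which adds CCA to tRNA ends, at 164 ± 7.63 and 126 ± 4.92 CPM, and the pseudouridine synthase Rpusd4, at 77.8 ± 0.889 and 91.4 ± 5.67.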

How the data were processed

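For the 4 oocyte libraries the deposited matrix gives a raw count for each gene, and the authors added, library by library, a table of expected counts, TPM, FPKM, gene lengths and effective lengths per gene, which per the file headers has the form of RSEM gene results. The submitters' processing notes name cutadapt 1.16, STAR, RSEM and the mm10 build, without their roles. The sources used here do not give the program that counted the matrix or its use of strand. Genes that overlap are therefore uncertain. Deposited TPM were used only for class shares, and the deposited FPKM were not used.

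Libraries were grouped by their titles. The quasi-likelihood test of edgeR 4.0.16 in R 4.3.3 was run on the matrix counts (glmQLFit and glmQLFTest after filterByExpr and TMM scaling, with a single genotype term and 2 residual degrees of freedom), with Benjamini-Hochberg adjustment over all 15493 genes tested and a threshold of 0.05. CPM are on TMM-scaled library sizes, and SEs were derived from the fold change and the F statistic (absolute log2 value over root F). Shares were computed from unscaled counts. DESeq2 1.42.0, RLE scaling, rounded expected counts, no filter, the replicate number as a block and leaving out each library were alternatives.

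Coordinates and sequences came from GENCODE release M21 (mm10). Nuclear copies were found with BLAST 2.17.0 among its transcripts, and each mitochondrial gene was then summed with its copies before a further fit. All protein and rRNA genes were named, with tRNA genes that passed the test, had a mean of at least 50 counts or lay between called genes, and nuclear genes that passed or were the 2 most abundant of their role. The genes, lists and tests were chosen with earlier results of these data known.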

Additional observations from a re-analysis of the deposited data

How the results depend on the processing

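The count of mitochondrial genes called lower, 4 with edgeR on the matrix, was 14 with DESeq2, 1 with expected counts, 9 without a filter on low counts, 6 with the replicate block and 3 to 9 when 1 library was left out. The calls of mt-Nd3, mt-Tr and mt-Nd4l held in each of these settings of the matrix counts. With copies summed, the count of 1 became 0 with expected counts, 3 with the replicate block and 1 to 7 without 1 library, and was 1 with only the 7 copies on chromosome 1 summed, an alternative chosen after seeing the data. For the nuclear list, the 0 genes called higher became 4 with DESeq2, 1 without the filter, 1 with the replicate block and 0 to 1 without 1 library. Its 1 gene called lower became 3 with DESeq2, 0 with RLE scaling, 2 with expected counts, 2 without the filter, 2 with the replicate block and 0 to 3 without 1 library. Over all genes the calls fell from 581 to 22 without control 1 and 27 without control 2, and rose to 1688 without mutant 1, 1025 without mutant 2 and 1213 with the replicate block. Libraries of the same number deviated from their group means with a correlation of 0.176, over only 2 pairs, so the numbers were not taken as pairs. Among the named genes, directions turned for those whose value was near 0 and for the sums of mt-Nd3 and mt-Nd4l. When 1 library was left out, the log2 fold change ran from -0.38 (without mutant 1) to 0.43 for mt-Rnr1, with -0.01 without control 1, from -0.43 to 0.19 (without control 1) for mt-Rnr2, and from -0.25 to 0.10 (without control 1) for mt-Co1, alone and with copies summed. It ran from -0.43 to 0.11 (without mutant 2) for mt-Tf and from -0.21 (without mutant 2) to 0.43 for mt-Ty, with -0.07 without control 1. With expected counts the sums with copies were -0.41 for mt-Nd3 and -0.24 for mt-Nd4l. The cause of these changes was not tested. With 2 libraries per group, 1 library decides many calls, and the tRNA genes with under 50 counts a library have wide errors.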
